A study of Mus musculus with 16 samples.

Results

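The first 3 days of TGF-β2 treatment were examined as 1 step of a tenogenic (tendon-forming) induction of mouse cells, by comparing plates of cells labelled T0 with plates labelled T3 across all genes. The members were the 6 single-cell plates of these labels, of 16 samples in the series. They held 2304 wells, of which 2298 had 200 or more detected genes and were kept as cells, out of 4594 such cells in the 12 plates of the whole time course. Each plate was treated as 1 sample, so that n = 3 for each time point.

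The cells came from induced pluripotent stem cells (iPSCs) of ScxGFP transgenic mice, which carry a green reporter driven by regulatory sequence of Scx, and the study followed a single iPSC clone grown on feeder cells in 2i and LIF. T0 cells were mesodermal cells derived from these iPSCs, and they had received no TGF-β2. The labels give 4 days in DMEM-F12 with 5% FBS, L-glutamate and ITS (insulin, transferrin and selenite) for this step. In the study's methods those 4 days preceded mesodermal induction, which was then done with CHIR, a Wnt agonist, and cyclopamine, a hedgehog inhibitor. Induction was followed by recovery without both agents and, from the day before TGF-β2, by medium with 1% FBS. T3 cells had then spent 3 days with TGF-β2 (10 ng/ml of the recombinant human protein) in that medium with 1% FBS, ITS and L-glutamate. There was no plate of cells kept for 3 days without TGF-β2. Both were taken apart with trypsin, the T3 cells after collagenase and the T0 cells without it. The effects of the ligand, of time in culture and of the digestion cannot be told apart. Live single cells were sorted into 384-well plates without selection for the reporter, and their RNA was read from the 3′ end by CEL-Seq2, in which each captured molecule carries a unique molecular identifier (UMI). Nothing in the labels says whether the 3 plates of a time point came from separate inductions, so p-values measure the spread between plates, which may be technical.

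TGF-β2 is a secreted dimer that binds a complex of type I and type II receptor kinases, which phosphorylate Smad2 and Smad3. These join Smad4 and move to the nucleus, where they change transcription together with other factors. In the embryo this pathway is needed for most tendons, where it maintains Scx, a basic helix-loop-helix transcription factor that marks tendon progenitors, and in many mesenchymal cells it raises genes of collagen, of matrix assembly and of the contractile apparatus.

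Depth differed between the time points. The T0 plates held 3718922 to 4660623 UMIs and the T3 plates 1923117 to 2872446, and the plate medians were 9035.5 to 11496 UMIs per cell at T0 and 4580.5 to 7045 at T3. At an equal 3000 UMIs per cell, the median number of genes per cell was 1652 to 1706 at T0 and 1021, 1588 and 1354 in T3 plates 1, 2 and 3, a mean difference of -356.7 that gave p = 0.1 in the exact two-sided permutation test, the smallest p that 3 plates against 3 allow. T3 plate 1 had the fewest UMIs and genes per cell of the 6 plates. The mapping summary of the study also divides the plates, by the share of their reads assigned to no feature, into a group that holds the 3 T0 plates and T3 plate 2 and a group that holds T3 plates 1 and 3. Values for T3 plate 2 are therefore the only ones that compare with T0 inside 1 of these groups, and they are given in every list of plate values below. All plates used the same 384 well barcodes, which here name positions and not shared cells.

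Levels are given as CPM, the UMIs of a gene divided by all UMIs of its plate and multiplied by 1000000. Changes are log2 ratios of T3 over T0 from edgeR's quasi-likelihood fit over all 12 plates, with their standard errors, and a gene was called when its Benjamini-Hochberg adjusted p was under 0.05. The fit scaled the plates by TMM factors, under which the median log2 change of the tested genes was 0.01. With plain plate totals it was -0.21, which is the scale on which the CPM values stand, so a change quoted here is about that much more positive than the ratio of the CPM values.

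Of 13375 genes tested, 4442 (33.2%) were called, 2282 of them (17.1%) higher at T3 and 2160 (16.1%) lower. A rise of at least 4-fold was seen in 659 of the called genes and a fall of that size in 336, and 167 rose and 50 fell by at least 16-fold. The plates of T0 and T3 did not overlap for 6906 genes (51.6%). Genes called higher took 10.1 to 11.1% of the UMIs of the T0 plates and 20.6 to 24.8% of those of the T3 plates, while genes called lower fell from a range of 22.2 to 23.2% to 8.06 to 11.7%. With T3 plate 2 alone against the T0 plates 1926 genes were called, 1111 higher and 815 lower. In that setting 4438 of the 4442 genes kept the sign of their change and 1808 kept their call. Leaving out 1 plate at a time gave 3011 to 4407 called genes, the lowest without T0 plate 2. With plain plate totals 3892 genes were called, of which 39.1% were higher, against 51.4% of the 4442.

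**Figure D1:**
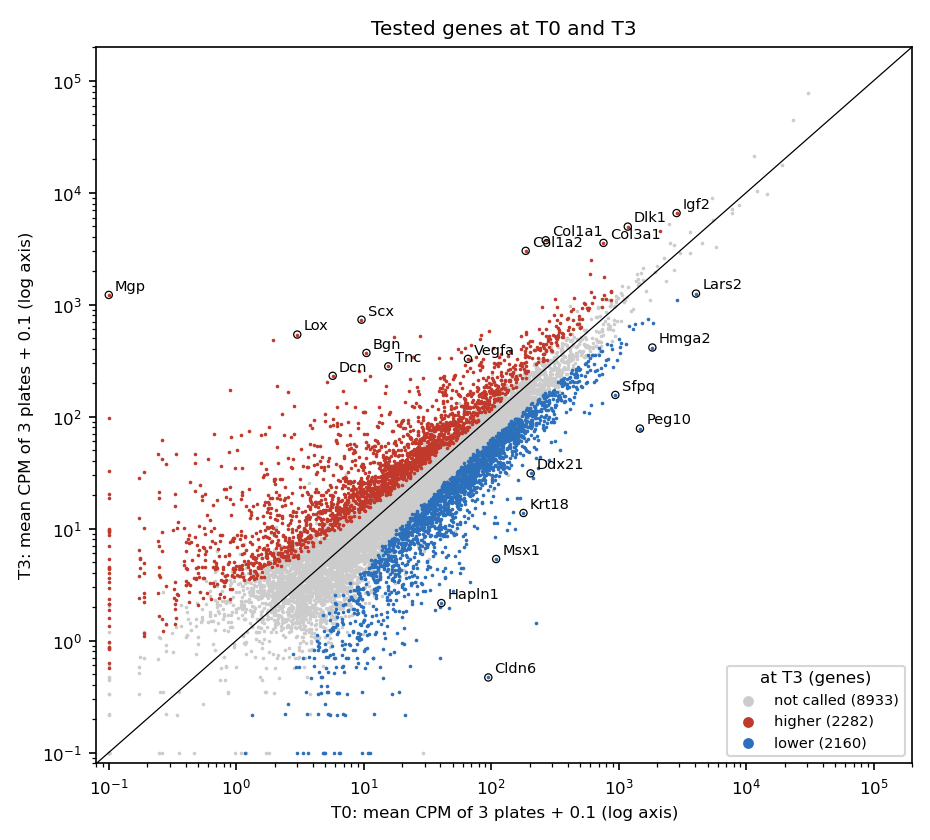
Mean CPM at T0 (horizontal) and at T3 (vertical) of the 13375 genes tested, each the mean of 3 plates with 0.1 added, on log axes. Red points are the 2282 genes called higher at T3, blue points the 2160 called lower and grey points the rest, and the line marks equal CPM. Mgp stands at the left edge with no UMI at T0, the 3 fibrillar collagen genes at the upper end, and Peg10 and Hmga2 below the line.

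Scx rose more than any other gene that had at least 10 UMIs in each of the 6 plates. Its level was 9.01, 7.41 and 12.1 CPM at T0 and 711, 724 and 766 CPM at T3. The T3 plates lay within a narrow band far above every T0 plate (log2 change 6.52 ± 0.35, adjusted p = 2.0e-08). Shares of cells were taken after each cell was thinned to 3000 UMIs, which left out 21 to 30 shallower cells of a T0 plate and 20 to 62 of a T3 plate. On that basis 1.10 to 1.96% of the cells of a T0 plate and 68.9 to 76.5% of those of a T3 plate had a Scx UMI, and without thinning the shares were 4.71 to 4.97% and 75.5 to 84.1%. As a background, 3 of the 15 T3 cells with UMIs of 3 or more pluripotency markers had one after thinning, cells whose median depth was 13265 UMIs against 5704 over all T3 cells. Of the same 15 cells 2 had a Lox UMI, 2 a Mgp UMI, 7 a Col1a1 UMI and none a Dcn or Tnmd UMI. Without thinning these numbers were 6 for Scx, 7 for Lox, 10 for Mgp and 13 for Col1a1 (86.7%), and again none for Dcn or Tnmd, which for Mgp is 66.7% of the 15 cells against 71.9 to 84.6% of all T3 cells. Whether reads of the reporter transgene were counted as Scx was not tested.

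Other tendon genes rose with it. Of 17 tested members of the tendon list, 14 were higher and none lower, with a median log2 change of 3.21. Mkx, a homeobox factor of later tendon development, was at 4.08, 4.86 and 2.42 CPM at T0 and 17.2, 14.7 and 19.1 CPM at T3 (log2 change 2.39 ± 0.39, adjusted p = 3.7e-04). Egr1, an immediate early zinc finger factor that also acts in tendon, was at 285, 362 and 345 CPM at T0 and 667, 709.8 and 809 CPM at T3 (log2 change 1.38 ± 0.19, adjusted p = 1.2e-04). Both were higher in each T3 plate than in any T0 plate. Tnmd, a transmembrane glycoprotein of mature tenocytes, had no UMI in the T0 plates and 10.4, 7.73 and 7.66 CPM in the T3 plates, which is at least 35.5-fold higher when 3 UMIs over all T0 plates are taken as the floor. A Tnmd UMI was found in 1.98 to 2.75% of T3 cells at 3000 UMIs per cell (2.60 to 3.13% without thinning), a far smaller share than for Scx. Thbs2, a matricellular thrombospondin, rose from 1.29, 1.39 and 0.807 to 54.6, 78.4 and 90.2 CPM (log2 change 6.17 ± 0.30, adjusted p = 1.0e-08). The small leucine-rich proteoglycan Fmod, which binds collagen fibrils, went from 0.429, 0.694 and 0 to 24.4, 50.8 and 40.0 CPM (log2 change 6.68 ± 0.44, adjusted p = 9.2e-08). Chosen after their values were seen, the further members with large changes were Tnc, the matricellular tenascin-C (15.5 CPM at T0 and 281 at T3), Thbs4 (0.22 CPM at T0 and 9.67 at T3, ratio 43.4, 95% counting interval 14.3 to 215), Kera, the proteoglycan keratocan, which had no UMI at T0 and 16.1, 6.63 and 6.96 CPM in the T3 plates. The transcription factor genes Six2 (1.76 CPM at T0 and 13.6 at T3) and Eya2 (0.976 CPM at T0 and 7.92 at T3) were also chosen in this way. Eya1, chosen in the same way, was at 23.8 CPM at T0 and 23.8 at T3 and was not called. Against T3 plate 2 alone Eya2 (adjusted p = 0.051) was not called. All 10 tenocyte markers were called higher, also with T3 plate 2 alone, with a median log2 change of 4.88, or 4.76 with Tnmd and Kera set at their bounds.

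**Figure D2:**
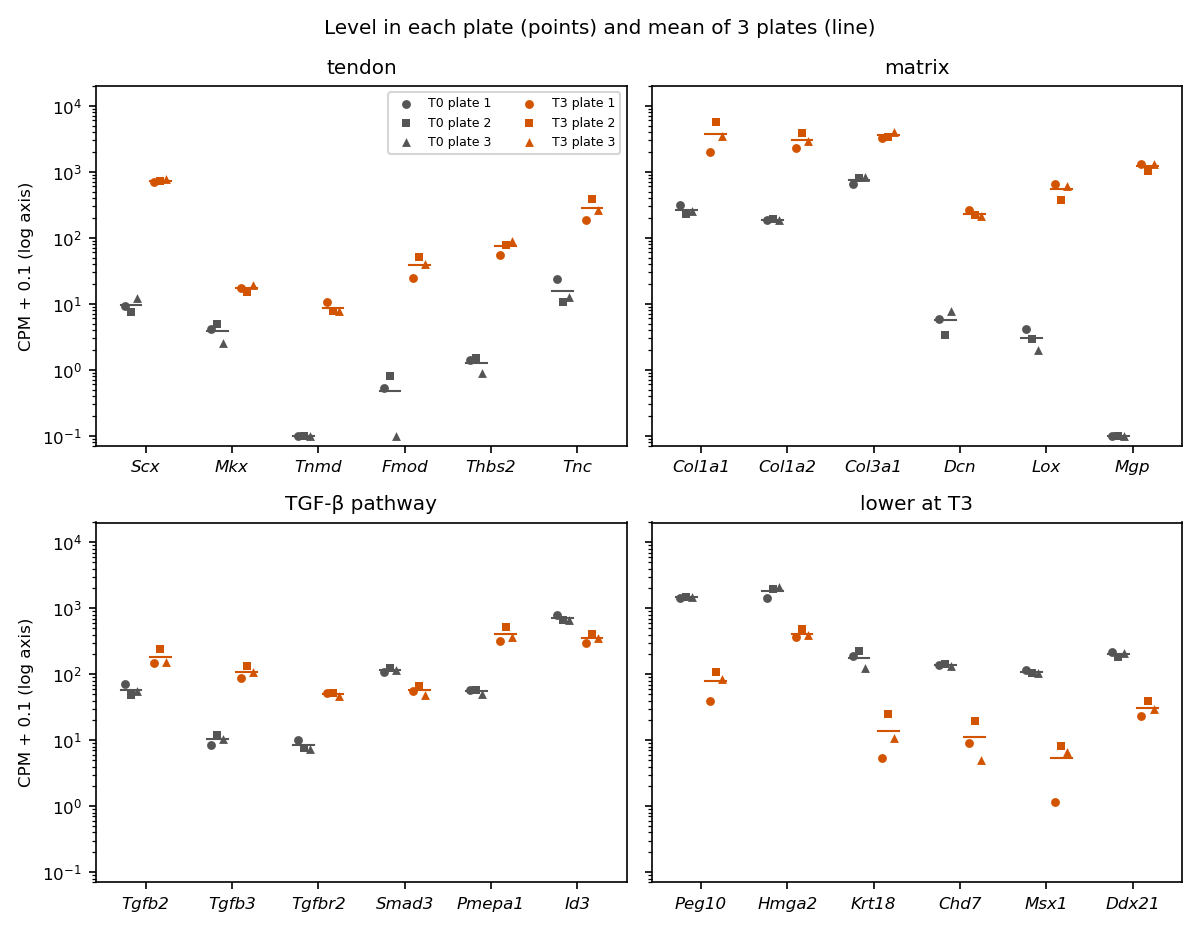
Level of 24 genes in each plate of T0 (grey) and T3 (orange), as CPM + 0.1 on a log axis, with circles, squares and triangles for plates 1, 2 and 3 and a short line for the mean of 3 plates. The T3 points of Scx lie close together far above the T0 points, Tnmd and Mgp stand at the bottom of the axis at T0 with no UMI, and the 6 genes of the last panel lie lower at T3 in every plate.

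Among the genes of the TGF-β pathway itself, ligands and the type II receptor were higher and 2 Smads lower. Of 13 tested ligands, receptors, latent binding proteins and Smads, 7 were higher and 2 lower (median log2 change 1.05 against 0.01 over all genes). Tgfb2, which encodes the mouse ligand, was at 70.8, 48.4 and 56.5 CPM at T0 and 146, 243 and 156 CPM at T3 (log2 change 1.84 ± 0.28, adjusted p = 2.2e-04). Tgfb3 rose further, with 8.37, 12.03 and 10.2 CPM at T0 and 87.4, 133 and 108 CPM at T3 (log2 change 3.63 ± 0.19, adjusted p = 1.7e-08). Every T3 plate lay above every T0 plate for both. Tgfbr2, the type II receptor, was at 10.1, 7.64 and 7.26 CPM at T0 and 52.0, 51.2 and 47.3 CPM at T3 (log2 change 2.82 ± 0.21, adjusted p = 3.9e-07). Tgfbr1, the type I receptor, chosen after its values were seen, was at 98.4 CPM at T0 and 64.4 at T3 and was not called, though it was lower with T3 plate 2 alone (adjusted p = 0.044) and with plain plate totals. Smad4 which joins the phosphorylated Smads, went from 131, 144 and 128 to 71.8, 103 and 63.01 CPM (log2 change -0.55 ± 0.19, adjusted p = 0.038), a call that was lost in many settings, being not called when 1 of T0 plates 1, 2 and 3 and of T3 plates 1 and 3 was left out (adjusted p = 0.065 to 0.15). Smad3, chosen after its values were seen, was lower in every T3 plate, with 108, 126 and 118 at T0 and 55.6, 67.4 and 49.1 CPM at T3 (log2 change -0.81 ± 0.21, adjusted p = 0.0083). Neither Smad3 (adjusted p = 0.1) nor Smad4 (adjusted p = 0.36) was called with T3 plate 2 alone. With plain plate totals 5 members were higher and 3 lower.

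Among 23 tested genes that respond to or dampen TGF-β signals, 10 were higher (43.5%) and 2 lower (8.70%), with a median log2 change of 0.72. The shares of all tested genes were 17.1% and 16.1%. Rgcc, a cell cycle regulator induced by TGF-β, rose from 2.15, 1.16 and 1.08 to 33.3, 38.3 and 42.8 CPM (log2 change 4.89 ± 0.31, adjusted p = 6.9e-08). Bhlhe40, a repressor of the helix-loop-helix family, rose from 9.01, 5.55 and 7.80 to 81.6, 95.3 and 91.9 CPM (log2 change 3.82 ± 0.23, adjusted p = 3.5e-08). Tgfbi, a secreted matrix protein named for its induction, was at 305, 219.8 and 275 CPM at T0 and 464, 563 and 538 CPM at T3 (log2 change 1.20 ± 0.22, adjusted p = 8.3e-04). Further members were chosen after their values were seen. Pmepa1 (55.1 CPM at T0 and 402 at T3, log2 change 3.08, adjusted p = 1.8e-07), Skil (112 CPM at T0 and 300.4 at T3, log2 change 1.65, adjusted p = 1.5e-05) and Smad7 (47.1 CPM at T0 and 67.5 at T3, log2 change 0.72, adjusted p = 0.0077) act as feedback inhibitors and were higher. Id3, an inhibitor of helix-loop-helix factors and a target of BMP signals, was at 799.9, 658 and 661 CPM at T0 and 300.03, 405 and 358 CPM at T3 (log2 change -0.77 ± 0.16, adjusted p = 0.0028) and was lower in every T3 plate. Smad6, chosen after its values were seen, went from 30.2 to 10.9 CPM (log2 change -1.26, adjusted p = 0.0074). Neither Id3 (adjusted p = 0.052) nor Smad6 (adjusted p = 0.18) was called with T3 plate 2 alone, and with plain plate totals Smad7 (adjusted p = 0.2) was not called.

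Fibril-forming collagens and the proteoglycans that shape their fibrils rose strongly. Of 17 tested members 14 were higher and none lower (median log2 change 3.99), and the summed level of the list went from 1386 to 1456 CPM in the T0 plates to between 8746 and 15154 CPM in the T3 plates. Col1a1 was at 317, 232 and 254 CPM at T0 and 2026, 5753 and 3499.8 CPM at T3 (log2 change 3.99 ± 0.42, adjusted p = 8.4e-06). Col1a2 was at 184, 189 and 186 CPM at T0 and 2262, 3899 and 2908 CPM at T3 (log2 change 4.22 ± 0.33, adjusted p = 4.8e-07). These are the 2 chains of type I collagen, the main protein of tendon. T3 plate 2 was the highest and T3 plate 1 the lowest for both, and each stood far above T0. Col3a1, of the thinner fibrils of young tissue, was at 659.8, 799 and 821 CPM at T0 and 3235, 3431 and 4013 CPM at T3 (log2 change 2.47 ± 0.24, adjusted p = 3.8e-06). The minor fibril chain Col11a1 was at 46.1, 43.0 and 46.0 CPM at T0 and 162, 231 and 158 CPM at T3 (log2 change 2.24 ± 0.25, adjusted p = 1.7e-05). At 3000 UMIs per cell a Col1a1 UMI was found in 35.6 to 38.6% of T0 cells and in 95.3 to 99.7% of T3 cells (56.3 to 65.7% and at least 95.8% without thinning). Dcn (decorin) rose from 5.79, 3.24 and 7.80 to 263, 219 and 213 CPM (log2 change 5.62 ± 0.31, adjusted p = 2.1e-08). Of T3 cells, 25.5 to 30.9% had a Dcn UMI after thinning (28.1 to 40.2% without), a smaller share than for Col1a1. Bgn (biglycan) rose from 15.0, 6.25 and 9.95 to 282, 512 and 317 CPM (log2 change 5.35 ± 0.29, adjusted p = 2.0e-08). Col12a1, which decorates fibrils, rose from 8.37, 4.86 and 6.99 to 76.4, 275 and 160.5 CPM (log2 change 4.82 ± 0.45, adjusted p = 2.9e-06). Col2a1, the collagen of cartilage, was at 13.9, 11.6 and 12.9 CPM at T0 and 1.56, 5.89 and 6.96 CPM at T3 and was not called (log2 change -1.16 ± 0.47, adjusted p = 0.075).

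The enzymes that fold, modify and cross-link collagen rose as well. Of 26 tested members 19 were higher and none lower, with a median log2 change of 1.53, and with plain totals 15 were higher. Lox, the lysyl oxidase that starts cross-linking, was at 4.08, 2.78 and 1.88 CPM at T0 and 643, 373 and 605 CPM at T3 (log2 change 7.78 ± 0.42, adjusted p = 2.0e-08). After thinning 57.3 to 69.1% of T3 cells had a Lox UMI against 0.552 to 2.27% of T0 cells (66.7 to 79.7% and 1.31 to 3.93% without thinning). T3 plate 2 was the lowest of the T3 plates for Lox and the highest for Col1a1. Loxl1 rose from 7.72, 8.56 and 7.26 to 41.1, 62.6 and 53.6 CPM (log2 change 2.95 ± 0.19, adjusted p = 7.9e-08). The collagen chaperone Serpinh1 was at 409, 321 and 332 CPM at T0 and 466, 1108 and 872 CPM at T3 (log2 change 1.40 ± 0.23, adjusted p = 4.0e-04). P4hb, a subunit of prolyl 4-hydroxylase, was at 309, 236 and 268 CPM at T0 and 479, 801 and 552 CPM at T3 (log2 change 1.38 ± 0.18, adjusted p = 6.7e-05). Chosen after their values were seen, P4ha2 (38.7 CPM at T0 and 334 at T3) and Plod2 (96.4 CPM at T0 and 584 at T3), which hydroxylate proline and lysine of collagen, rose by log2 changes of 3.32 and 2.83.

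In the rest of the matrix, 23 of 35 tested members were higher and 1 lower (median log2 change 1.79, or 1.46 with members without a UMI at T0 set at their bounds). Mgp, matrix Gla protein, an inhibitor of calcification, had no UMI among 12700890 UMIs of the T0 plates and 1294, 1047 and 1323 CPM in the T3 plates, which is at least 5146-fold higher against the floor of 3 UMIs. A Mgp UMI was found in 66.8 to 77.1% of T3 cells at 3000 UMIs per cell (71.9 to 84.6% without thinning). The chains of type VI collagen, which forms beaded filaments around cells, rose together. Col6a1 went from 3.65, 5.32 and 6.18 to 147, 281 and 189 CPM (log2 change 5.54 ± 0.30, adjusted p = 1.8e-08). Col6a2 went from 0.858, 0.694 and 0.807 to 101, 256 and 165 CPM (log2 change 7.90 ± 0.38, adjusted p = 1.0e-08). Col6a3 went from 3.43, 5.55 and 5.65 to 105, 122 and 91.6 CPM (log2 change 4.67 ± 0.29, adjusted p = 6.9e-08). The highest T0 plate of each stood far under the lowest T3 plate. Among elastic fibre proteins, Fbln5 (fibulin-5) was at 10.3, 9.95 and 9.95 CPM at T0 and 253, 191 and 198 CPM at T3 (log2 change 4.66 ± 0.24, adjusted p = 1.5e-08). Eln, chosen after its values were seen, went from 0.374 to 46.5 CPM (log2 change 6.95, adjusted p = 3.0e-07). The matricellular genes Postn and Ccn4 rose from a few CPM, and fibronectin from a high level. Postn (periostin) went from 5.58, 3.70 and 2.69 to 81.1, 108 and 92.6 CPM (log2 change 4.75 ± 0.26, adjusted p = 2.1e-08). Ccn4 went from 11.4, 11.1 and 4.57 to 192, 314 and 254 CPM (log2 change 5.01 ± 0.32, adjusted p = 8.1e-08). Fn1 (fibronectin) went from 659, 592 and 560.1 to 1924, 3286 and 2341 CPM (log2 change 2.27 ± 0.27, adjusted p = 2.6e-05). The basement membrane gene Col4a1 (41.4 CPM at T0 and 40.0 at T3), chosen after its values were seen, was not called. Lama1, a laminin chain chosen in the same way, was the member that fell (31.5 CPM at T0 and 4.24 at T3, log2 change -2.62, adjusted p = 0.019), and it was not called when 1 of T3 plates 1 and 3 was left out (adjusted p = 0.059 to 0.076). Of 17 tested proteases and inhibitors of the MMP, ADAMTS and TIMP families 11 were higher (64.7%) and 1 lower (5.88%). The shares of all tested genes were 17.1% and 16.1%. Mmp2, a gelatinase, was at 69.1, 67.3 and 73.4 CPM at T0 and 324, 545 and 429.6 CPM at T3 (log2 change 2.84 ± 0.20, adjusted p = 2.2e-07). The protease Adamts6 went from 2.15, 3.47 and 3.76 to 43.7, 66.3 and 43.5 CPM (log2 change 4.24 ± 0.38, adjusted p = 1.9e-06).

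Most members of the contractile list were not called, and more were higher than lower. Acta2, smooth muscle actin, was at 394, 358 and 180.4 CPM at T0 and 662, 864 and 918 CPM at T3 (log2 change 1.63 ± 0.26, adjusted p = 3.5e-04), so that all T3 plates exceeded all T0 plates. The share of cells with an Acta2 UMI was 18.8 to 33.2% at T0 and 41.6 to 52.4% at T3 at 3000 UMIs per cell, and without thinning the plates overlapped (30.6 to 57.9% and 44.3 to 64.1%). Mylk, myosin light chain kinase, rose from 0.858, 1.39 and 0.807 to 23.4, 17.3 and 19.1 CPM (log2 change 4.47 ± 0.42, adjusted p = 3.3e-06). Actg2, another smooth muscle actin, rose from 0.215, 0 and 0.807 to 4.68, 6.99 and 10.8 CPM (log2 change 4.65 ± 0.59, adjusted p = 4.6e-05). In all 9 of 26 tested members were higher (34.6%) and 2 lower (7.69%), against 17.1% and 16.1% of all tested genes. Their median log2 change was 0.12 and became -0.11 with plain totals. Tagln (transgelin) was at 111 CPM at T0 and 92.0 at T3 and Cnn1 (calponin) at 6.42 CPM at T0 and 6.58 at T3, and neither, chosen after its values were seen, was called. Of 22 tested integrin and focal adhesion genes 3 were higher (13.6%) and 7 lower (31.8%). Itga8 rose from 7.08, 8.33 and 5.92 to 23.4, 35.0 and 26.5 CPM (log2 change 2.199 ± 0.21, adjusted p = 2.9e-06). Itga6, a laminin receptor subunit, fell from 57.7, 56.0 and 53.2 to 4.16, 6.99 and 3.48 CPM (log2 change -3.29 ± 0.30, adjusted p = 2.4e-06). Itgb1, the shared β1 chain, was at 318, 303 and 313 CPM at T0 and 255, 290.1 and 287 CPM at T3 and was not called.

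Growth factor genes changed in both directions. Of 28 tested members of the FGF, IGF and PDGF list 12 were higher (42.9%) and 6 lower (21.4%), against 17.1% and 16.1% of all tested genes. Fgf9 rose from 0.215, 0.231 and 0 to 16.6, 16.2 and 23.7 CPM (ratio 122, 95% counting interval 33.1 to 1015, adjusted p = 3.1e-07). The binding protein Igfbp2 rose from 66.9, 69.7 and 49.5 to 285, 564 and 374 CPM (log2 change 2.91 ± 0.20, adjusted p = 1.7e-07). Members named after their values were seen included Fgf18, a ligand that was also higher (0.913 CPM at T0 and 50.2 at T3, log2 change 5.89, adjusted p = 4.7e-06), and 4 genes that were lower and act in or downstream of receptor tyrosine kinase signalling. These 4 were Spry1 (75.1 CPM at T0 and 17.6 at T3, log2 change -1.87, adjusted p = 2.5e-04), Dusp6 (116 CPM at T0 and 38.2 at T3, log2 change -1.39, adjusted p = 4.0e-05), Etv4 (31.4 CPM at T0 and 4.94 at T3, log2 change -2.50, adjusted p = 0.0068) and Etv5 (32.8 CPM at T0 and 2.71 at T3, log2 change -3.32, adjusted p = 7.3e-05). Etv4 was not called with T3 plate 2 alone (adjusted p = 0.054). Dusp9, which encodes a phosphatase, fell from 188, 140.5 and 150.3 to 9.88, 23.6 and 22.3 CPM (log2 change -2.86 ± 0.31, adjusted p = 1.0e-05). In the BMP and activin list 8 of 19 were higher (42.1%) and 1 lower (5.26%). Those higher included the secreted antagonist Fst, chosen after its values were seen (4.72 CPM at T0 and 27.9 at T3, log2 change 2.78, adjusted p = 9.3e-05). Fstl1, a secreted follistatin-like protein, was at 583, 607 and 602 CPM at T0 and 1669, 2338 and 1625 CPM at T3 (log2 change 1.87 ± 0.22, adjusted p = 2.6e-05). In the Wnt list 10 of 23 were higher (43.5%) and 6 lower (26.1%). Dkk3 rose from 6.65, 6.02 and 5.65 to 72.8, 75.5 and 97.5 CPM (log2 change 3.98 ± 0.26, adjusted p = 7.9e-08). The antagonist Frzb fell from 129, 157 and 158 to 13.0, 13.3 and 15.7 CPM (log2 change -3.17 ± 0.27, adjusted p = 1.0e-06). Lef1 and Tcf7, nuclear partners of β-catenin chosen after their values were seen, were also lower, at 57.6 CPM at T0 and 4.38 at T3 (log2 change -3.55, adjusted p = 4.9e-04) and 33.7 CPM at T0 and 7.50 at T3 (log2 change -1.95, adjusted p = 8.6e-04). Of 17 tested genes of the retinoic acid list 4 were higher (23.5%) and 1 lower (5.88%), against 17.1% and 16.1% of all tested genes. With plain totals 2 were higher and 1 lower. Dhrs3, a retinaldehyde reductase, was at 62.7, 65.3 and 64.8 CPM at T0 and 126, 194 and 147 CPM at T3 (log2 change 1.49 ± 0.18, adjusted p = 2.9e-05). Cyp26a1, which degrades retinoic acid, was at 1.29, 1.85 and 0.538 CPM at T0 and 5.72, 10.7 and 5.22 CPM at T3 (log2 change 2.70 ± 0.42, adjusted p = 2.4e-04). Aldh1a2, a retinaldehyde dehydrogenase, was at 111, 183 and 176 CPM at T0 and 209.6, 256 and 220.0 CPM at T3 (log2 change 0.77 ± 0.25, adjusted p = 0.033), with T3 plates just above the T0 range, and it was not called when 1 of T0 plate 1 and of T3 plates 1 and 3 was left out (adjusted p = 0.084 to 0.12). Its call was also lost with T3 plate 2 alone (adjusted p = 0.28), with plain totals and without cells carrying pluripotency or epithelial markers. The binding protein gene Crabp1 fell from 297, 559 and 532 to 182, 183 and 182 CPM (log2 change -1.11 ± 0.36, adjusted p = 0.031), and it was not called when 1 of T0 plates 2 and 3 and of T3 plates 1, 2 and 3 was left out (adjusted p = 0.058 to 0.12).

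**Figure D3:**
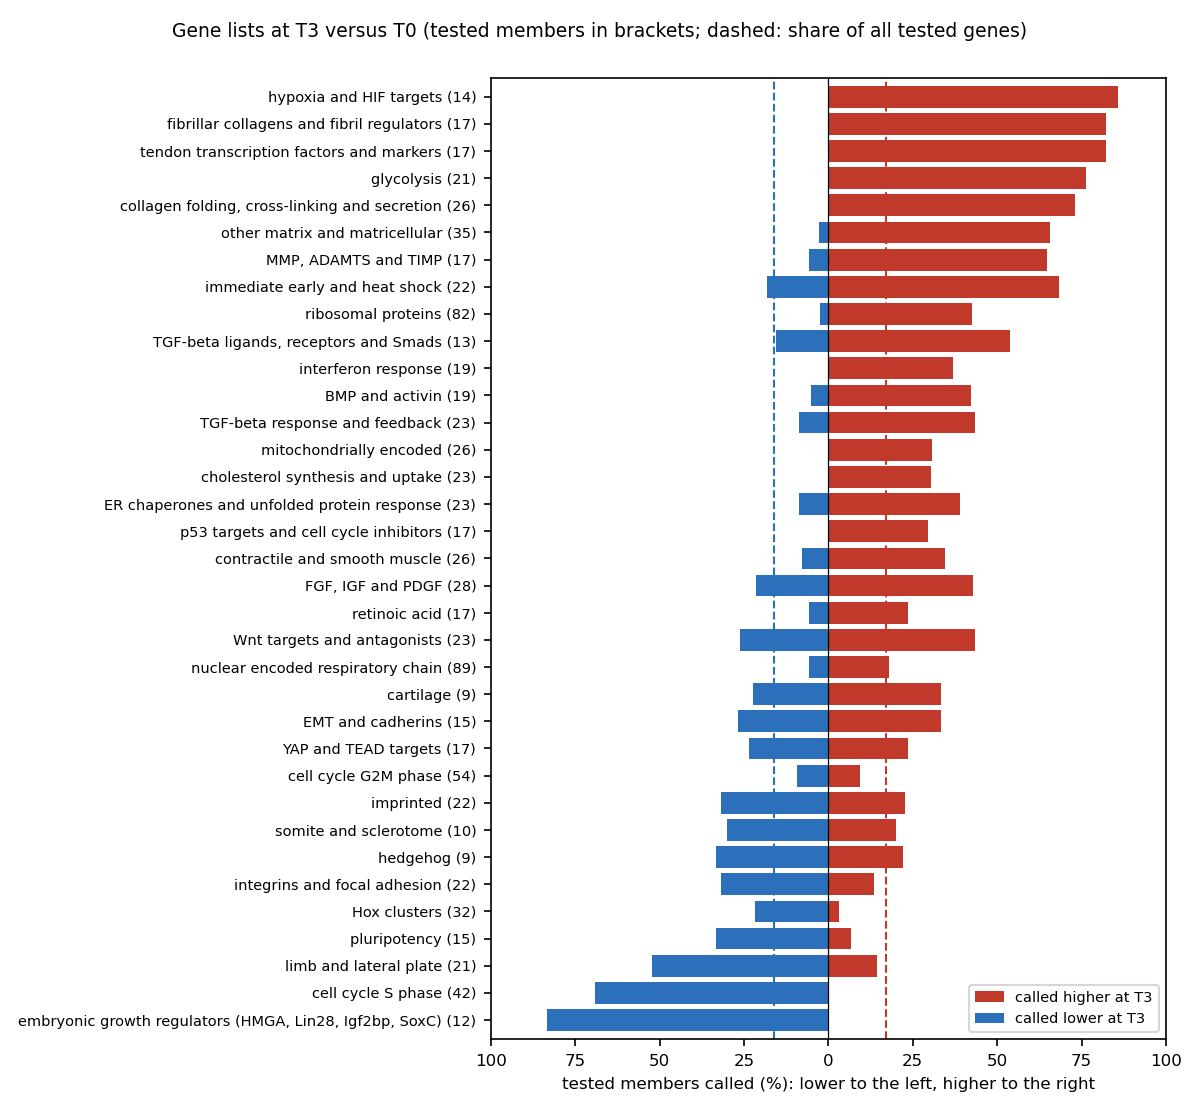
Percentage of the tested members of each of 35 gene lists called higher (red, to the right) or lower (blue, to the left) at T3, with dashed lines at the 17.1% and 16.1% of all tested genes and the number of tested members in brackets. Lists of hypoxia, fibrillar collagen, tendon and glycolysis genes reach furthest to the right, and embryonic growth regulators and S phase genes furthest to the left.

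Genes of glycolysis and of the response to low oxygen rose together. Of 21 tested glycolytic genes 16 were higher and none lower (median log2 change 1.34), and of 14 tested targets of HIF, the transcription factor stabilised when oxygen falls, 12 were higher and none lower (median 2.33). Pgk1, phosphoglycerate kinase, was at 419, 454 and 455 CPM at T0 and 1136, 1138 and 1185 CPM at T3 (log2 change 1.62 ± 0.21, adjusted p = 6.2e-05). Aldoc, an aldolase, rose from 8.58, 9.95 and 8.34 to 60.8, 99.8 and 103 CPM (log2 change 3.51 ± 0.23, adjusted p = 7.9e-08). Pdk1, which holds pyruvate back from the mitochondria, was at 46.8, 43.7 and 42.5 CPM at T0 and 132, 174 and 162 CPM at T3 (log2 change 2.04 ± 0.16, adjusted p = 5.1e-07). The T3 plates of each lay above all T0 plates. Vegfa, the growth factor for vessels, was at 60.5, 66.0 and 70.5 CPM at T0 and 319.8, 355 and 309 CPM at T3 (log2 change 2.55 ± 0.17, adjusted p = 1.4e-07). P4ha1, a prolyl 4-hydroxylase subunit that is also a HIF target, was at 76.4, 72.7 and 76.9 CPM at T0 and 211, 465 and 356 CPM at T3 (log2 change 2.39 ± 0.20, adjusted p = 9.5e-07). Ldha and Bnip3, chosen after their values were seen, encode lactate dehydrogenase A and a mitophagy receptor and were at 328 CPM at T0 and 946 at T3 (log2 change 1.76, adjusted p = 3.3e-05) and 2.59 CPM at T0 and 16.9 at T3 (log2 change 2.93, adjusted p = 1.7e-04). Pkm, pyruvate kinase, was at 1005, 1138 and 985 CPM at T0 and 1004, 1594 and 1177 CPM at T3 and was not called. Hif1a, chosen after its values were seen, was at 145 CPM at T0 and 177 at T3 and was not called either.

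The promoters of 5 of these genes are printed because they rose together and because HIF is known to bind the letters ACGTG or GCGTG. Each window runs from 250 bases before to 50 after the start of a RefSeq transcript (GRCm38.p6), 5′ to 3′ on the gene's strand, and the capitals mark ACGTG or GCGTG on either strand, where matches can overlap. For genes with several windows in the table the first was taken. They lie at chrX:106186850-106187149 (Pgk1, plus strand), chr7:46845554-46845853 (Ldha, plus strand), chr11:78322823-78323122 (Aldoc, plus strand), chr10:59323046-59323345 (P4ha1, plus strand) and chr7:138909457-138909756 (Bnip3, minus strand).
Pgk1: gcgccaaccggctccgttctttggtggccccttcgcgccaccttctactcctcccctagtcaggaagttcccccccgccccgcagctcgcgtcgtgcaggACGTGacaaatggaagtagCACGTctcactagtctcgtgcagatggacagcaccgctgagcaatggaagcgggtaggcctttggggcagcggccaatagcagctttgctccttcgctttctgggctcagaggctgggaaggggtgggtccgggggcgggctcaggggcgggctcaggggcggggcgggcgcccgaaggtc
Ldha: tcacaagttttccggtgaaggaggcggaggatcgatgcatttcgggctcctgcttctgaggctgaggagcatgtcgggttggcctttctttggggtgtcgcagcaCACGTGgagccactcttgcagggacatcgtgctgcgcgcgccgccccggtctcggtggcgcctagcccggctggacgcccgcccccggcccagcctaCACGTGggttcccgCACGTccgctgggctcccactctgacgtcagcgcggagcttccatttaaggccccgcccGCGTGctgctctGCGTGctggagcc
Aldoc: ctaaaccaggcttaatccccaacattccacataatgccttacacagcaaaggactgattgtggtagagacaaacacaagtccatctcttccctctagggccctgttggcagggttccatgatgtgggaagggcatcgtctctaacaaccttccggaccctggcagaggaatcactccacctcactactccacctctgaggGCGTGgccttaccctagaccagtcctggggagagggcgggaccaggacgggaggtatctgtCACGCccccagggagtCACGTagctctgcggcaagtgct
P4ha1: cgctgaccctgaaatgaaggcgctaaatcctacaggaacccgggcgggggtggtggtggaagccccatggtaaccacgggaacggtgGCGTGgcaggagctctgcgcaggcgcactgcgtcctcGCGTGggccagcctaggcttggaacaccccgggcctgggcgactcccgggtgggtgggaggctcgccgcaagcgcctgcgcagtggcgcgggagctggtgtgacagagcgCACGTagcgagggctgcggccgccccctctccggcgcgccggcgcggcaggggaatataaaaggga
Bnip3: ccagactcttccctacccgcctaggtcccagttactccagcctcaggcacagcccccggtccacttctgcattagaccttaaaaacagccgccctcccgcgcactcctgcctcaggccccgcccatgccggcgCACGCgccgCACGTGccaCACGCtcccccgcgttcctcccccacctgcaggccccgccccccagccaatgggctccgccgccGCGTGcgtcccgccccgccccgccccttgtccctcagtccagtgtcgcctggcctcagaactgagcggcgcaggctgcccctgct

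Pgk1 held 2 matches, at 150 and 131 bases before its start, Ldha 7, Aldoc 3, P4ha1 3 and Bnip3 5. Not every gene that rose held a match, and Vegfa, whose window is not printed, had none. Either letter string occurred in 12 of the 16 glycolytic genes called higher (75.0%) and in 9 of the 10 called HIF targets with a window (90.0%), against 43.8% of 27025 promoters. The string ACGTG alone occurred in 9 of those 16 (56.2%), in 7 of those 10 (70.0%) and in 19.7% of all promoters. The shares were alike when members that were not called were counted too, with either string in 16 of 21 glycolytic genes (76.2%) and in 11 of 12 HIF targets with a window (91.7%). Among lists not chosen for hypoxia, either string occurred in 8 of 9 TGF-β ligands, receptors and Smads with a window (88.9%) and in 5 of 12 fibrillar collagens and fibril regulators (41.7%). The HIF target list was made of genes already known as targets of HIF, which binds these letters. A high share in that list could thus be foreseen, and it is no test of HIF in these cells. The members' base composition was not matched to that of all promoters, and a match describes letters only.

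Among the falls, Peg10, an imprinted gene derived from a retrotransposon that is highly expressed in early embryos and placenta, had the largest change of a gene with at least 10 UMIs in each plate. It was at 1428, 1477 and 1499.9 CPM at T0 and 39.0, 109.7 and 85.6 CPM at T3 (log2 change -4.04 ± 0.34, adjusted p = 1.1e-06). A Peg10 UMI was found in 92.9 to 93.8% of T0 cells and in 6.52 to 16.1% of T3 cells at 3000 UMIs per cell, and without thinning in 96.3 to 97.1% and 9.90 to 28.2%. Imprinted genes did not move in 1 direction. Of 22 tested, 5 were higher (22.7%) and 7 lower (31.8%), against 17.1% and 16.1% of all tested genes. Dlk1, a Notch family inhibitor, was at 1147, 1066 and 1322 CPM at T0 and 4266, 5903 and 4756 CPM at T3 (log2 change 2.30 ± 0.23, adjusted p = 4.8e-06). Igf2, the fetal growth factor, was at 2718, 2849 and 2976 CPM at T0 and 4520.3, 8972 and 6234 CPM at T3 (log2 change 1.40 ± 0.23, adjusted p = 4.5e-04). Its neighbour H19, a noncoding RNA, was at 2234, 2047 and 2001 CPM at T0 and 2542, 7181 and 3835 CPM at T3 (log2 change 1.28 ± 0.27, adjusted p = 0.0024). All 3 were among the 10 largest gains in mean CPM, while Peg3 fell from 1471, 1669 and 1926 to 565, 1013 and 649 CPM (log2 change -0.99 ± 0.29, adjusted p = 0.018). Peg3 was not called when 1 of T0 plates 2 and 3 and of T3 plates 1 and 3 was left out (adjusted p = 0.0504 to 0.075). The other large falls by fold were Asb4 (153 CPM at T0 and 9.79 at T3, log2 change -3.78, adjusted p = 2.8e-06), the LIM protein gene Fhl1 (134 CPM at T0 and 9.55 at T3, log2 change -3.54, adjusted p = 1.2e-06) and the chromatin remodeller Chd7 (139 CPM at T0 and 11.1 at T3, log2 change -3.46, adjusted p = 1.5e-05). They also included Fndc3c1 (51.9 CPM at T0 and 5.53 at T3, log2 change -2.99, adjusted p = 2.4e-06), the adhesion protein gene Flrt3 (168 CPM at T0 and 18.6 at T3, log2 change -2.95, adjusted p = 2.7e-06) and Neto2, of an auxiliary receptor subunit (45.4 CPM at T0 and 5.74 at T3, log2 change -2.76, adjusted p = 1.9e-06).

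Regulators of embryonic growth fell together. Of 12 tested members 10 were lower and none higher, with a median log2 change of -1.76, and with T3 plate 2 alone 4 were lower. Hmga2, a chromatin protein of proliferating embryonic cells, was at 1435, 1970.5 and 2108 CPM at T0 and 366, 486 and 391 CPM at T3 (log2 change -1.93 ± 0.20, adjusted p = 8.6e-06). Sox11, a transcription factor of embryonic progenitors, was at 962, 1154 and 1020.2 CPM at T0 and 384.3, 598 and 389.6 CPM at T3 (log2 change -0.99 ± 0.25, adjusted p = 0.0084). Trim71, an RNA-binding ubiquitin ligase of early embryos, fell from 63.5, 57.4 and 47.9 to 1.56, 12.9 and 4.18 CPM (log2 change -2.95 ± 0.37, adjusted p = 4.0e-05). The RNA-binding proteins Lin28a (38.6 CPM at T0 and 3.10 at T3), Lin28b (62.5 CPM at T0 and 8.76 at T3) and Igf2bp1 (589 CPM at T0 and 108 at T3), chosen after their values were seen, had log2 changes of -3.40, -2.66 and -2.29. With T3 plate 2 alone Sox11 (adjusted p = 0.19), Lin28a (adjusted p = 0.062) and Igf2bp1 (adjusted p = 0.077) were not called.

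Transcription factors of the limb and lateral plate list fell more often than they rose. Of 21 tested members 3 were higher (14.3%) and 11 lower (52.4%), against 17.1% and 16.1% of all tested genes (median log2 change -0.82). Prrx1, a homeobox factor of limb mesenchyme, was at 368, 430.2 and 493 CPM at T0 and 194, 209 and 217 CPM at T3 (log2 change -0.82 ± 0.18, adjusted p = 0.0031). Msx1, a homeobox target of BMP signals chosen after its values were seen, went from 109 to 5.25 CPM (log2 change -4.10, adjusted p = 3.5e-06). Osr1 went the other way, from 0.644, 1.39 and 4.03 to 30.2, 50.4 and 35.2 CPM (log2 change 4.50 ± 0.37, adjusted p = 7.9e-07). In the somite list 2 of 10 were higher (20%) and 3 lower (30%), closer to the shares of all tested genes. Meox1, a homeobox factor of somites, was at 10.9, 15.5 and 12.6 CPM at T0 and 72.3, 114 and 81.8 CPM at T3 (log2 change 2.98 ± 0.21, adjusted p = 2.0e-07). Pax3, of the dermomyotome, fell from 20.0, 9.26 and 12.6 to 0, 0.736 and 0.348 CPM (ratio 35.5, 95% counting interval 11.9 to 174, adjusted p = 2.1e-04). Sox9, the factor of cartilage and of tendon attachment cells, was at 140.1, 169 and 161 CPM at T0 and 126, 128 and 109 CPM at T3 and was not called (log2 change -0.14 ± 0.20, adjusted p = 0.63). Twist1 stood at 225 CPM at T0 and 162 at T3, also not called. The early mesoderm genes T and Mixl1 and the presomitic gene Tbx6 had at most 0.858 CPM in any of the 6 plates and were not tested, like Acan and Lmx1b. Of 32 tested Hox genes 1 was higher (3.13%) and 7 lower (21.9%), against 17.1% and 16.1% of all tested genes. Hoxb13 rose from 5.79, 3.93 and 2.96 to 26.0, 52.3 and 33.8 CPM (log2 change 3.32 ± 0.27, adjusted p = 8.8e-07). Hoxc10 fell from 231, 287 and 269.7 to 82.2, 121 and 96.8 CPM (log2 change -1.18 ± 0.19, adjusted p = 3.4e-04).

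S phase genes were lower, whereas most G2/M genes were not called. Of 42 tested S phase genes 29 were lower and none higher (median log2 change -0.77), and of 54 G2/M genes 5 were higher and 5 lower (9.26% each, against 17.1% and 16.1% of all tested genes; median 0.00). With T3 plate 2 alone 18 S phase genes were lower and no G2/M gene was called. Mcm7, a subunit of the replicative helicase, was at 234, 230.5 and 226 CPM at T0 and 60.8, 83.2 and 58.5 CPM at T3 (log2 change -1.55 ± 0.17, adjusted p = 1.4e-05). Uhrf1, which maintains DNA methylation at replication, was at 122, 151 and 143 CPM at T0 and 25.5, 51.2 and 40.4 CPM at T3 (log2 change -1.62 ± 0.20, adjusted p = 3.1e-05). Top2a, a topoisomerase of mitotic chromosomes, was at 867, 909.9 and 959.7 CPM at T0 and 778, 764 and 637 CPM at T3 and was not called. Nusap1, of the spindle, was at 67.4, 52.8 and 67.0 CPM at T0 and 119.6, 96.5 and 112 CPM at T3 (log2 change 1.07 ± 0.21, adjusted p = 0.0015). It was not called with T3 plate 2 alone (adjusted p = 0.15). The difference between the 2 lists was not tested.

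Factors that assemble ribosomes were lower and ribosomal protein genes, in the full comparison, higher. In a list of 30 nucleolar and ribosome assembly factors, drawn up after values were seen, 24 were lower and none higher (median log2 change -1.29), and 17 were lower with T3 plate 2 alone. Ncl (nucleolin) was at 1549, 1480.3 and 1519.8 CPM at T0 and 666, 697 and 695 CPM at T3 (log2 change -0.90 ± 0.19, adjusted p = 0.0022). Nolc1, a nucleolar chaperone, fell from 278, 300.1 and 308 to 45.8, 73.3 and 59.2 CPM (log2 change -2.10 ± 0.22, adjusted p = 7.9e-06). The helicase gene Ddx21 fell from 217, 184 and 210.3 to 23.4, 39.8 and 29.9 CPM (log2 change -2.50 ± 0.17, adjusted p = 1.1e-07). Npm1 was at 3346, 2850.5 and 2915 CPM at T0 and 2972, 2754 and 3024 CPM at T3 and was not called. Of 82 tested ribosomal protein genes 35 were higher and 2 lower (median log2 change 0.75), but only 1 was higher and 1 lower with T3 plate 2 alone, where the median was 0.38. Their summed share was 42983 to 55292 CPM at T0 and 57351 to 63511 CPM at T3. Many of these genes have near-identical processed copies, and reads with several matches were not counted. Mitochondrially encoded genes took 126700 to 150440 CPM of the T0 plates and 119100 to 279180 CPM of the T3 plates, 8 of 26 being higher and none lower, with a median log2 change of 0.90. With T3 plate 2 alone 5 of them were higher and the median was -0.01. The part of ribosomal protein and mitochondrial RNA in other results was not tested. Other lists drawn up after values were seen gave 12 lower and 1 higher of 31 splicing factors of the hnRNP and SR families and 8 lower of 12 chaperonin genes. Hnrnpm was at 830.4, 948 and 912 CPM at T0 and 245, 277 and 315 CPM at T3 (log2 change -1.45 ± 0.18, adjusted p = 3.2e-05). Cct3, of the cytosolic chaperonin, was at 565, 585 and 557 CPM at T0 and 175, 238 and 194 CPM at T3 (log2 change -1.27 ± 0.16, adjusted p = 4.0e-05). The largest losses in CPM included Sfpq, an RNA-binding protein of the nucleus, at 809.8, 1018 and 997 CPM at T0 and 131, 189 and 149 CPM at T3 (log2 change -2.38 ± 0.29, adjusted p = 3.5e-05). Trim28, a corepressor of retrotransposons, was at 1819, 2018 and 1791 CPM at T0 and 654, 710.5 and 692 CPM at T3 (log2 change -1.21 ± 0.18, adjusted p = 1.6e-04). Others were Marcksl1 (2849 CPM at T0 and 1095 at T3) and the RNA helicase gene Ddx39b (1147 CPM at T0 and 444 at T3). Lars2 also stood among them (1974, 4357 and 5796 CPM at T0 and 893, 2107 and 764 CPM at T3), but it varied widely among the T0 plates (log2 change -1.54 ± 0.48, adjusted p = 0.026) and was not called when 1 of T0 plates 2 and 3 and of T3 plates 1 and 3 was left out (adjusted p = 0.071 to 0.12).

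Immediate early genes were higher for the most part. Of 22 tested immediate early and heat shock genes 15 were higher (68.2%) and 4 lower (18.2%). Ier3 was at 53.9, 44.2 and 46.8 CPM at T0 and 273, 389 and 346 CPM at T3 (log2 change 3.02 ± 0.17, adjusted p = 2.6e-08). Ier5 was at 72.5, 66.0 and 66.7 CPM at T0 and 239, 297 and 279.9 CPM at T3 (log2 change 2.22 ± 0.17, adjusted p = 4.8e-07). The 4 that fell, Hspa8 (809.6 CPM at T0 and 447 at T3), Hsp90aa1 (311 CPM at T0 and 158 at T3), Hsph1 (123 CPM at T0 and 33.7 at T3) and Hspb1 (344 CPM at T0 and 50.6 at T3), all encode chaperones, the last 3 chosen after their values were seen. Hspa8 was not called when 1 of T0 plates 1, 2 and 3 and of T3 plates 2 and 3 was left out (adjusted p = 0.06 to 0.13), and Hsp90aa1 was not called when 1 of T0 plate 1 and of T3 plates 1 and 3 was left out (adjusted p = 0.058 to 0.16). Immediate early genes can respond to enzymatic dissociation, and since collagenase was used at T3 alone, digestion and time point cannot be told apart. Of 19 tested interferon response genes 7 were higher (36.8%) and none lower, against 17.1% and 16.1% of all tested genes. Among those higher were Oasl2 (24.7 CPM at T0 and 121 at T3, log2 change 2.54, adjusted p = 2.5e-07) and Bst2 (47.0 CPM at T0 and 194 at T3, log2 change 2.23, adjusted p = 2.0e-05). Ifi27l2a, a further interferon-inducible gene, had no UMI at T0 and 92.0, 84.3 and 117 CPM at T3, at least 419-fold higher. The metallothionein genes Mt1 (392.01, 242 and 223 CPM at T0 and 22.9, 78.4 and 20.5 CPM at T3, log2 change -2.65, adjusted p = 0.0018) and Mt2 (334, 206 and 155 CPM at T0 and 15.6, 77.7 and 10.8 CPM at T3, log2 change -2.59, adjusted p = 0.028) were lower, with T3 plate 2 the highest of the T3 plates for both. Neither Mt1 (adjusted p = 0.12) nor Mt2 (adjusted p = 0.41) was called with T3 plate 2 alone, and Mt2 was also not called when 1 of T0 plates 1 and 2 and of T3 plates 1 and 3 was left out (adjusted p = 0.057 to 0.11).

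**Figure D4:**
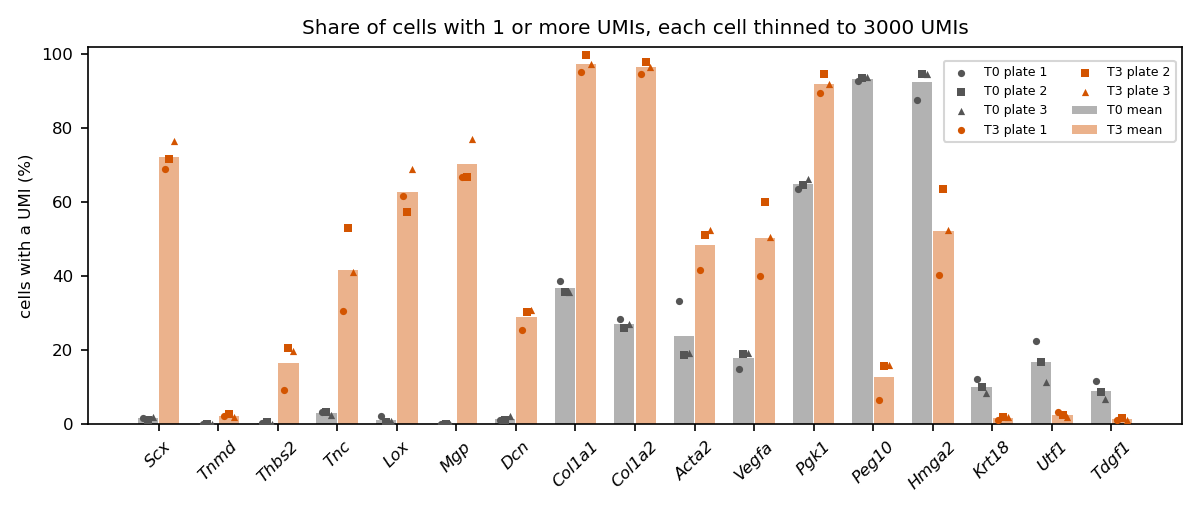
Percentage of cells with at least 1 UMI of each gene when every cell is thinned to 3000 UMIs, with bars for the mean of 3 plates and points for plates (grey T0, orange T3). Scx, Lox, Mgp and both type I collagen genes lie above 57% in every T3 plate, Tnmd stays under 3%, and Peg10 drops from above 92% to under 17%.

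Other lists had shares of called genes that were in part close to those of all tested genes, 17.1% higher and 16.1% lower. Of 15 tested genes of epithelial-mesenchymal transition and cadherins 5 were higher and 4 lower. Cdh11, a cadherin of mesenchyme, was at 138, 132 and 154 CPM at T0 and 355, 400.2 and 399 CPM at T3 (log2 change 1.68 ± 0.18, adjusted p = 8.6e-06), and Vim, the intermediate filament vimentin, was at 679.7, 533 and 524 CPM at T0 and 844, 861 and 1005 CPM at T3 (log2 change 0.89 ± 0.25, adjusted p = 0.016), and it was not called when 1 of T0 plates 2 and 3 and of T3 plate 3 was left out (adjusted p = 0.064 to 0.071). Of 17 tested YAP and TEAD targets 4 were higher and 4 lower (23.5% each), with Axl, a receptor kinase, at 13.1, 12.03 and 13.4 CPM at T0 and 65.5, 51.9 and 58.1 CPM at T3 (log2 change 2.43 ± 0.21, adjusted p = 1.2e-06) and Ccn2, which is also a TGF-β target, at 33.7, 37.3 and 36.8 CPM at T0 and 81.1, 80.3 and 81.5 CPM at T3 (log2 change 1.41 ± 0.18, adjusted p = 4.3e-05). Among 9 tested hedgehog genes 2 were higher (22.2%) and 3 lower (33.3%). Gas1, a co-receptor, was at 162, 195 and 224 CPM at T0 and 431, 485 and 456 CPM at T3 (log2 change 1.47 ± 0.18, adjusted p = 3.1e-05), whereas Gli3, a transcription factor of the pathway, was at 202, 253 and 225 CPM at T0 and 84.8, 101 and 76.6 CPM at T3 (log2 change -1.15 ± 0.24, adjusted p = 0.0023) and was not called with T3 plate 2 alone (adjusted p = 0.058). Of 9 tested cartilage genes 3 were higher and 2 lower. Hapln1, a link protein of cartilage matrix, fell from 42.3, 37.5 and 41.9 to 1.56, 1.84 and 2.79 CPM (log2 change -4.02 ± 0.47, adjusted p = 2.3e-05). Of 23 tested genes of ER chaperones and the unfolded protein response 9 were higher and 2 lower. Xbp1, a transcription factor of that response, was at 94.4, 85.4 and 101 CPM at T0 and 205, 264 and 206 CPM at T3 (log2 change 1.49 ± 0.15, adjusted p = 7.4e-06), and Hspa5, the main chaperone of the ER lumen, was at 1048, 1141 and 1277 CPM at T0 and 1025, 1417 and 1067 CPM at T3 and was not called. Of 23 tested genes of cholesterol synthesis and uptake 7 were higher and none lower, and of 17 p53 targets and cell cycle inhibitors 5 were higher and none lower, among them Cdkn1b at 53.9, 51.8 and 57.3 CPM at T0 and 98.3, 144 and 88.8 CPM at T3 (log2 change 1.23 ± 0.16, adjusted p = 5.1e-05). Of 89 tested nuclear genes of the respiratory chain 16 were higher (17.98%) and 5 lower (5.62%), which became 13 higher and 12 lower with plain totals and 2 higher and 1 lower with T3 plate 2 alone.

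The summed levels of pluripotency and of epithelial markers were lower at T3. The 8 pluripotency markers summed to 371 to 780 CPM in the T0 plates and 105 to 156 CPM in the T3 plates. Of the 6 tested, Utf1, a chromatin factor of pluripotent cells, was lower (276, 241 and 126 CPM at T0 and 26.5, 31.7 and 26.5 CPM at T3, log2 change -2.69 ± 0.95, adjusted p = 0.042), and it was not called when 1 of T0 plates 1, 2 and 3 and of T3 plates 1, 2 and 3 was left out (adjusted p = 0.061 to 0.12). Pou5f1, a defining gene of pluripotency whose near-identical copies make its counts uncertain, had at most 3.23 CPM in any plate and was not tested. With Utf1 alone called, the share of tested markers that were lower was 16.7%, against 16.1% of all tested genes. The other tested markers were not called. Among them were Tdgf1 (166, 146 and 94.9 CPM at T0 and 27.0, 46.8 and 16.4 CPM at T3), Sox2 (129.8, 121 and 59.7 CPM at T0 and 34.3, 36.4 and 31.3 CPM at T3) and Nanog (67.6, 27.5 and 23.9 CPM at T0 and 12.5, 9.94 and 8.70 CPM at T3). For each of these genes T0 plate 1 was the highest and T0 plate 3 the lowest of the T0 plates, and every T3 plate was lower. On the wider pluripotency list 5 of 15 tested members were lower (33.3%) and 1 higher (6.67%), against 16.1% and 17.1% of all tested genes. Cells with UMIs of at least 3 of the 8 pluripotency markers numbered 60, 38 and 20 in the T0 plates and 4, 7 and 4 in the T3 plates. These cells were counted without thinning, and plate medians were 9035.5 to 11496 UMIs per cell at T0 and 4580.5 to 7045 at T3. The part of depth in this difference was not tested. All 7 epithelial markers were lower, with sums of 412 to 526 CPM at T0 and 19.2 to 56.3 CPM at T3, but with T3 plate 2 alone 3 of the 7 were called. Krt18, a keratin of simple epithelia, was at 187, 224 and 126 CPM at T0 and 5.20, 25.0 and 10.8 CPM at T3 (log2 change -3.50 ± 0.50, adjusted p = 1.2e-04). Cdh1, the epithelial cadherin, was at 114, 114 and 94.4 CPM at T0 and 3.64, 10.3 and 10.8 CPM at T3 (log2 change -3.44 ± 0.69, adjusted p = 0.0018). Cldn6, of tight junctions, was at 76.0, 99.97 and 109 CPM at T0 and 0, 1.10 and 0 CPM at T3 (ratio 235, 95% counting interval 80.1 to 1139, adjusted p = 1.3e-04). Cdh1 was among the 4 not called with T3 plate 2 alone (adjusted p = 0.066). In bulk sums, fewer cells of a type and less RNA per cell cannot be told apart. With cells carrying 3 or more markers of either kind left out, 4366 genes were called, 2327 higher and 2039 lower, and the tendon, fibrillar collagen and HIF target lists gave 14, 14 and 12 members higher, the numbers of the full comparison. Of the 7 epithelial markers 3 were then called lower. The same markers had chosen the cells left out, so this count cannot describe the cells that remained.

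Marker lists of most other cell types were low. The 10 endothelial markers summed to 15.0 to 18.9 CPM at T0 and 35.4 to 101 CPM at T3. All 3 tested members were higher, among them Erg (1.17 CPM at T0 and 22.3 at T3, log2 change 4.49, adjusted p = 1.2e-06) and Kdr (1.87 CPM at T0 and 27.6 at T3, log2 change 3.98, adjusted p = 2.4e-04). However, Cdh5 was at 0 CPM at T0 and 0.123 at T3 and Pecam1 at 1.73 CPM at T0 and 0.484 at T3, so these defining genes of endothelium, chosen after their values were seen, were at or near 0. The 8 skeletal muscle markers summed to 31.5 to 75.0 CPM at T0 and 8.70 to 15.8 CPM at T3, with no Myod1 UMI. In the blood list Runx1 (12.9 CPM at T0 and 80.9 at T3), a factor that is also found in mesenchyme, was the 1 member called, and Ptprc, the defining blood cell gene, chosen after its values were seen, was at 0.226 CPM at T0 and 0 at T3. Cardiac, chondrocyte, neural and adipocyte lists summed to at most 68.0 CPM in any plate. The 14 parietal endoderm markers were not low, with sums of 1093 to 1255 CPM at T0 and 1547 to 2995 CPM at T3. Of 13 tested, 4 were higher (30.8%) and 2 lower (15.4%), against 17.1% and 16.1% of all tested genes. Sparc (887, 676 and 753 CPM at T0 and 1179, 2413 and 1742 CPM at T3, log2 change 1.40 ± 0.24, adjusted p = 6.6e-04) and Dab2 (45.2 CPM at T0 and 137 at T3) were higher. Gata4, chosen after its values were seen and at 3.57 CPM at T0, had no UMI at T3, and lost its call with T3 plate 2 alone (adjusted p = 0.081). Srgn was at 0, 8.79 and 7.26 CPM at T0 and 0, 0.368 and 0 CPM at T3 and was not called. Acta2, Sparc and several collagens are shared by many cell types, so they do not mark one.

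Some genes appeared or disappeared. In all 31 called genes had no UMI in any T0 plate and 13 had none in any T3 plate. Besides Mgp and Ifi27l2a, the largest gains from no UMI began with Gal, the neuropeptide galanin, with 15.1, 32.8 and 50.1 CPM in the T3 plates (at least 148-fold higher). Adamtsl2, an extracellular glycoprotein gene of the ADAMTS-like family, had 7.80, 32.0 and 20.9 CPM at T3 (at least 91.3-fold higher). Slc18a3, the vesicular acetylcholine transporter, had 20.3, 14.7 and 20.5 CPM at T3 (at least 77.8-fold higher). Rspo4 (7.08, 15.3 and 10.8 CPM at T0, at least 27.4-fold lower), Gm13119 (27.0), Chit1 (24.1), Rinl (16.6) and Gbx2 (15.97) led the losses to no UMI, the numbers being the lower bounds of the fold against 3 UMIs over the T3 plates. Rinl lost its call with T3 plate 2 alone (adjusted p = 0.051). Among the 12 largest rises of genes with 10 or more UMIs in every plate, 3 are on no list of tendon or matrix genes. Gria2, a glutamate receptor subunit, was at 3.43, 3.70 and 4.03 CPM at T0 and 56.7, 105 and 90.2 CPM at T3 (log2 change 4.70 ± 0.53, adjusted p = 1.5e-05). Slc1a3, a glutamate transporter, was at 2.15, 4.17 and 5.11 CPM at T0 and 65.5, 106 and 66.8 CPM at T3 (log2 change 4.59 ± 0.38, adjusted p = 8.3e-07). Sulf1, which trims heparan sulphate, was at 15.7, 19.9 and 16.4 CPM at T0 and 308, 743 and 489 CPM at T3 (log2 change 5.07 ± 0.33, adjusted p = 8.8e-08).

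The levels at T6 and T9 place the first step in the time course, and these comparisons share the T3 plates with those above. From T3 to T6, 566 of the tested genes (4.23%) were called, against 33.2% from T0 to T3. No further rise of Scx was called. Its mean was 734 ± 28.7 CPM at T3, 563 ± 77.5 at T6 and 162 ± 47.4 at T9 (T6 over T3 log2 change -0.35, adjusted p = 0.52). Meox1 and Vegfa were also highest at T3, with means of 89.3, 52.98 and 27.6 CPM and of 328, 207 and 147 CPM at T3, T6 and T9 (T6 over T3 log2 change -0.70, adjusted p = 0.057 for Meox1 and log2 change -0.66, adjusted p = 0.035 for Vegfa). Aldh1a2 fell from T3 to T6 (log2 change -1.73, adjusted p = 0.0021). Several matrix genes were higher again at T6. Dcn had means of 231, 1056 and 2580.2 CPM (T6 over T3 log2 change 2.18, adjusted p = 4.3e-04). Col1a2 had means of 3023, 8527 and 11499 CPM (log2 change 1.49, adjusted p = 0.01). Tnmd had means of 8.60, 68.7 and 106 CPM (log2 change 3.05, adjusted p = 0.0046). Acta2 also rose after T3 (log2 change 1.33, adjusted p = 0.0098). Srgn, which had a single UMI at T3, had 95.5 CPM at T6, and Tfpi was at 14.8, 11.1 and 34.03 CPM at T0, T3 and T6, not called in either step. Hmga2 went on falling (log2 change -1.15, adjusted p = 0.0052), while Peg10 had already reached its low level at T3 (78.1, 97.3 and 38.9 CPM at T3, T6 and T9).

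The change from T0 to T3 was also set against that from T6 to T9, which uses no plate in common. It differed for 1942 genes (14.5%), 1158 with a more positive and 784 with a more negative change in the first step. Of the genes called higher at T3, 1073 had a significantly more positive first step and none a significantly more negative one. Of those called lower, 718 had a significantly more negative first step and none a significantly more positive one. These genes were called on the T0 and T3 plates that also enter the difference, so that selection largely set the direction of these counts. For Scx the difference was 8.06 ± 0.44 on the log2 scale, adjusted p = 6.1e-08. For Hmga2 (-0.16 ± 0.28 on the log2 scale, adjusted p = 0.78) and Sparc (0.39 ± 0.34 on the log2 scale, adjusted p = 0.51) it was not called.

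**Figure D5:**
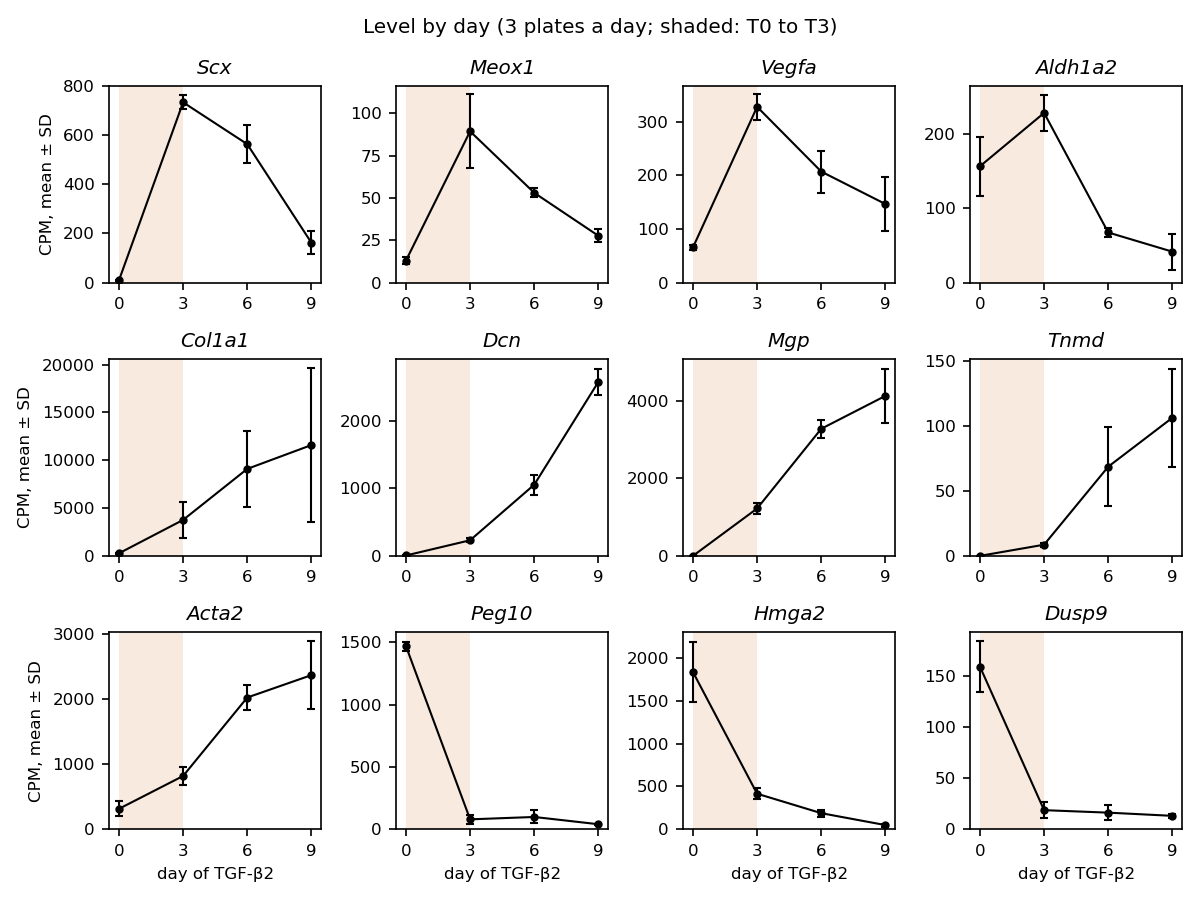
Mean CPM ± SD (n = 3 plates) of 12 genes at day 0, 3, 6 and 9 of TGF-β2, each with its own linear axis from 0 and the first step shaded. Scx, Meox1, Vegfa and Aldh1a2 are highest at day 3, and Peg10, Hmga2 and Dusp9 have lost most of their level by day 3. The means of Col1a1, Dcn, Mgp, Tnmd and Acta2 are higher at each later day. From T6 to T9 only the rise of Dcn among them was called, and that of Col1a1 from T3 to T6 was not called.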

How the data were processed

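Single cells were profiled by CEL-Seq2 in 3 plates of 384 wells at each of 4 time points. The authors deposited UMI counts per gene and well, without normalization, in a table of 29632 genes. Per the study's methods, reads were split by well barcode, trimmed, aligned to GRCm38 with HISAT2 (2.2.1 in the processing notes of the labels) and counted with featureCounts and UMI-tools (1.0.1), and cells with fewer than 200 detected genes were left out. A table of bulk tendon counts was not used here. The study's mapping summary lists reads with several matches apart from the assigned reads that gave the UMIs, so they were not counted. How reads of the reporter were counted is not given in the sources used here.

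Here, wells with 200 or more genes were kept and their counts summed per plate, doublets were not sought, since wells were sorted singly, and the sums were tested with edgeR 4.0.16 (filterByExpr, TMM, quasi-likelihood test, Benjamini-Hochberg adjustment over 13375 genes, threshold 0.05) in 1 fit of all 12 plates, after checks on simulated data. Symbols came from the Ensembl release 96 annotation, which matched 29538 rows, and the other 94 rows, with 0.0862% of UMIs, were named by their identifiers. Plate values have n = 3 and single values were compared by exact permutation tests. The genes tested had enough UMIs in at least 1 time point, so the counts of called list members cover only members that passed this filter. Alternatives used DESeq2 1.42.0, limma 3.58.1 on mean CPM per cell, other normalizations, filters, cells and plates, and each plate left out in turn.

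Genes named in the text were those the study names, the 12 largest changes in each direction among called genes with 10 or more UMIs in every plate, the 5 largest from or to no UMI, the 10 largest differences in mean CPM, and up to 4 members of each gene list (the 2 highest and the 2 of smallest p), and others are said to have been chosen after their values were seen. Some genes that this rule names are not reported here. The members, lists and tests were chosen with earlier results of these data known. A gene without UMIs at a time point was given a floor of 3 UMIs over its 3 plates, and 95% counting intervals of ratios are exact binomial ones, so floors and intervals cover counting error only. Same-numbered plates of T0 and T3 did not deviate together, with correlations of 0.0175, 0.0190 and 0.0287, so the plates were not paired. Plates of the same time point differed by more than sampling noise and were counted as separate samples.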

Additional observations from a re-analysis of the deposited data

Results flagged for a closer look

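The change from T0 to T3 differed from the change from T6 to T9 for 1942 genes in edgeR's test of the difference between the 2 steps, which share no plate. Of these, 1158 had a more positive and 784 a more negative change in the first step. This was flagged because it is a difference between groups under the same kind of contrast, and Scx was among the genes with a more positive first step. When the library group of the plates was added as a covariate the number was 3634.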

How the results depend on the processing

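With T3 plate 2 alone against the T0 plates, which removes the difference in library group and leaves T3 with 1 sample assumed to vary like the other time points, 1926 genes were called (1111 higher, 815 lower), a setting with fewer plates. With the library group as a covariate, 3634 genes differed between the first and the last step, and the cause was not tested. Leaving out 1 plate at a time gave 3011 to 4407 called genes, 1611 to 2285 higher and 1400 to 2122 lower, and 1428 to 2334 genes for the difference between steps. The other alternatives gave between 3273 (3000 UMIs per cell) and 5150 (only the 6 plates) called genes, and 4726 with DESeq2. A replicate block, added although the plate numbers did not pair the plates, gave 4006 called genes in the fit of 12 plates and 4756 in that of the 6 plates, and every plate correlated best with its own number, a hint from the data only.

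Of 176 tested genes given with values, 157 were called, 130 of them in all settings, and none of the called genes changed sign. Vim (log2 change 0.54), Lama1 (-1.70), Peg3 (-0.78) and Lars2 (-0.99) were also not called with T3 plate 2 alone. The same held for Crabp1 (-1.38), Utf1 (-2.79), Hspa8 (-0.83) and Hsp90aa1 (-0.57). Genes that were not called changed sign in some settings. Tagln reached log2 changes of 0.0050 (1000 or more genes per cell), 0.40 (without cells with pluripotent or epithelial markers), 0.043 (replicate block, 12 plates) and 0.093 (replicate block, 6 plates), and -0.21 to 0.45 with 1 plate left out. With 3000 UMIs per cell Cnn1 was at -0.16, Col4a1 at -0.068 and Sox9 at 0.077. With T3 plate 2 alone Eya1 was at -0.24, Itgb1 at -0.14, Npm1 at -0.18 and Tfpi at 0.25, and with the library group as a covariate Npm1 was at -0.26 and Top2a at 0.16. With plain totals Col4a1 was at -0.046, Eya1 at -0.0028, Itgb1 at -0.17 and Npm1 at -0.059, and with mean CPM per cell Cnn1 was at -0.30, Col4a1 at -0.22 and Itgb1 at -0.18. With 1 plate left out Cnn1 ranged from -0.17 to 0.97 and Top2a from -0.25 to 0.0034. Depth limited genes of a few CPM, since 3 UMIs over a time point were 0.236 CPM at T0 and 0.399 CPM at T3. No fit separated TGF-β2 from time or digestion.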
